A study of Homo sapiens with 5 samples.

Results

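Human mitochondrial DNA carries 37 genes, and these are the genes described here: 13 mRNA, 2 rRNA and 22 tRNA, chosen as every gene with a symbol that starts with MT-, out of 58929 genes in the files. They were followed in 5 libraries of A549, a widely used human line from a lung adenocarcinoma, with stable depletion or overexpression of RBMS1, a protein that binds RNA. The groups were RBMS1 knockdown (2 libraries, sh1088 and sh1196, a short hairpin each), the sh control (1 library), RBMS1 overexpression (1 library, named R1A) and the pCDH control (1 library). All were grown in F12K medium with fetal bovine serum, and the sources used here do not say whether each stable line is a clone. The design text calls the libraries ribosome footprints, while the molecule label reads total RNA, so the word footprint rests on that text. The protocols also describe fragmented total RNA as input, and which of these the libraries are could not be settled. In the footprint protocol, cells were treated with cycloheximide, a blocker of cytosolic ribosomes, digested with RNase I and run on a sucrose gradient. The single-ribosome fractions were then depleted of cytosolic and mitochondrial rRNA (Ribo-Zero Gold).

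Both strands of mitochondrial DNA are transcribed in the organelle as long precursors, and tRNA that lie between the mRNA and rRNA are cut out to release them. The mRNA encode core subunits of respiratory complexes I, III and IV and of ATP synthase (complex V), and mitochondrial ribosomes, which cycloheximide does not target, translate them. The tRNA serve only that translation, and in human mitochondria MT-TV also forms a structural part of the large ribosomal subunit.

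All 37 genes had the same identifier, version and length in GENCODE release 29 (GRCh38), from which the sequences and positions on mitochondrial DNA were read. The following tRNA are shown 5′ to 3′ with the anticodon in capitals because the results turn on them. MT-TS2 (chrM:12207-12265, plus strand) held the most tRNA counts in every library, MT-TM (chrM:4402-4469, plus strand) the next most when summed over libraries, MT-TT (chrM:15888-15953, plus strand) had the largest overexpression ratio and MT-TV (chrM:1602-1670, plus strand) went the opposite way. MT-TI (chrM:4263-4331, plus strand) and MT-TQ (chrM:4329-4400, minus strand) share 3 nt on opposite strands, and of the pair MT-TQ was listed at 0.
MT-TS2: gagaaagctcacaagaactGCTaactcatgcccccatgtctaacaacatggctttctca
MT-TM: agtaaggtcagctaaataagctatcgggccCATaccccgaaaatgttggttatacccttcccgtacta
MT-TT: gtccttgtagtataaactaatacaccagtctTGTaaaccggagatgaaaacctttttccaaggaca
MT-TV: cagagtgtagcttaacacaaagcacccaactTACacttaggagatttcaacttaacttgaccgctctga
MT-TI: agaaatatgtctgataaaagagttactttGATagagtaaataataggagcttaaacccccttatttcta
MT-TQ: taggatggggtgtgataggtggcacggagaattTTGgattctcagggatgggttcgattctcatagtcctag

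MT-TS2 has 59 nt, the shortest of the 22 tRNA, and is known to lack the D arm of the usual cloverleaf. The anticodon GCT starts at base 20. It reads the AGT and AGC serine codons, which were 53 of the 3789 codons of the 13 mRNA (1.40%), a rank of 21 among 22 tRNA. The most abundant tRNA in the files was thus next to last by the codons it reads.

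The libraries held between 10327747 and 13980843 expected counts. Nuclear protein-coding genes took 42.2% of them in sh1088 and 66.0% in sh1196, against 37.7% in the sh control, and 62.3% in the overexpression library, against 66.35% in the pCDH control. The mean fragment length was 43.4 nt in sh1088 and 46.3 nt in sh1196, against 46.0 nt in the sh control, and 40.9 nt in the overexpression library, against 52.3 nt in the pCDH control. A locus of RNase P RNA took 23.3% of counts in sh1088 and 10.7% in sh1196, against 32.1% in the sh control, and 13.9% in the overexpression library, against 15.0% in the pCDH control. RBMS1 had 18.3 scaled CPM in sh1088 and 13.4 in sh1196, against 31.0 in the sh control, and 37.0 in the overexpression library, against 24.7 in the pCDH control. Scaled CPM are library-scaled counts (CPM after TMM scaling, which evens out differences in library make-up). The RBMS1 values lie in the direction of the labels, but the knockdown change of -0.93 ± 0.45 (log2, SE, 2 libraries against 1) did not pass edgeR's quasi-likelihood test (adjusted p = 0.828). Markers of A549 epithelial cells (10 genes) summed to between 8643 and 18220 CPM. The 3 fibroblast markers summed to between 1.38 and 11.9 CPM, and the 3 endothelial markers to between 0.194 and 1.34 CPM with VWF at 0.

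Mitochondrial genes took a large share of every library, and the 3 classes of RNA did not move together. Together they held 19.6% of counts in sh1088 and 9.44% in sh1196, against 15.7% in the sh control, and 11.2% in the overexpression library, against 12.7% in the pCDH control. Wilson 95% bounds of all shares of counts given here were within 0.03 percentage points of each value, and they cover counting error only. The spread between the 2 hairpins exceeded both differences.

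The mRNA made up most of these counts. They took 17.97% of the library in sh1088 and 8.41% in sh1196, against 13.2% in the sh control, which lay between the hairpins. The share was 9.95% in the overexpression library, against 11.75% in the pCDH control. In bulk libraries, a changed share in every cell and in only some of the cells cannot be told apart.

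The rRNA that remained after depletion took 0.967% of counts in sh1088 and 0.702% in sh1196, against 0.493% in the sh control, so both hairpins lay above their control. The overexpression library had 0.874%, against 0.895% in the pCDH control. On the scaled CPM given further on, which follow another scaling, the control lay between the hairpins.

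The tRNA share varied most. It was 0.654% of counts in sh1088 and 0.324% in sh1196, against 2.06% in the sh control. It was 0.348% in the overexpression library, against 0.0948% in the pCDH control. The control libraries were thus at the opposite ends of the 5 values, with both RBMS1-depleted libraries and the overexpression library between them. Without MT-TS2 the tRNA took 0.0924% in sh1088 and 0.0890% in sh1196, against 0.173% in the sh control, and 0.112% in the overexpression library, against 0.0380% in the pCDH control, which kept the controls at both ends.

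**Figure D1:**
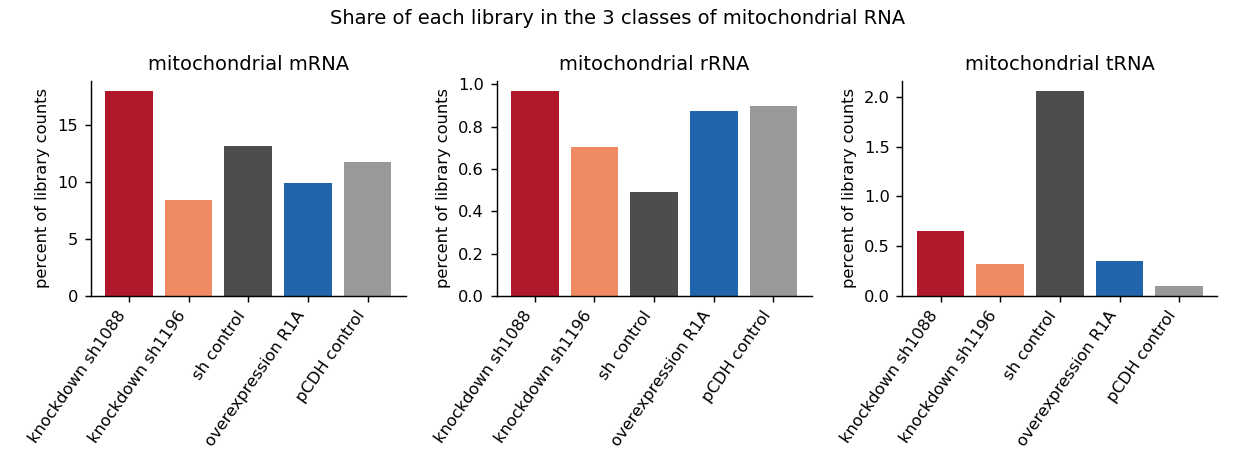
Share of the expected counts of each library (percent, vertical axis) in mitochondrial mRNA, rRNA and tRNA, with a bar for each of the 5 libraries and a separate scale for each class. The tRNA panel shows the sh control highest at 2.06% and the pCDH control lowest at 0.0948%.

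MT-TS2, the serine tRNA shown above, carried the tRNA share. It had 65890 counts in sh1088 and 24306 in sh1196, against 218959 in the sh control, and 24685 in the overexpression library, against 7942 in the pCDH control. These were 85.9% of all mitochondrial tRNA counts in sh1088 and 72.6% in sh1196, against 91.6% in the sh control, and 67.8% in the overexpression library, against 59.9% in the pCDH control.

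Its weight was greater on the deposited TPM scale, which divides by RSEM's effective length, an allowance for the places where a fragment can lie on the RNA. For this short RNA the effective length was 21.0 nt in sh1088 and 19.1 nt in sh1196, against 19.02 nt in the sh control, and 21.9 nt in the overexpression library, against 17.45 nt in the pCDH control. MT-TS2 therefore took 11.7% of all TPM in sh1088 and 6.05% in sh1196, against 30.2% in the sh control, where it ranked first of all genes. It took 5.79% of all TPM in the overexpression library, against 2.54% in the pCDH control.

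A gene with this share lowers the TPM of every other gene. Over 13834 genes with a mean of at least 1 CPM, the median log2 ratio of TPM (pseudocount 1) was 0.89 for knockdown over the sh control. It was 0.65 after TPM were rescaled without MT-TS2, a setting chosen after seeing the data. For overexpression over the pCDH control the median was -0.65, and -0.62 after the same rescaling. Comparisons of mitochondrial genes on the TPM scale carry this shift.

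In the knockdown comparison, both hairpins lay below the sh control for 9 of the 12 named tRNA and 8 of the 13 mRNA, and for neither rRNA, and no mitochondrial gene passed the test. The share of all genes with both hairpins below the control was not computed, so these counts are not read as particular to the members. Among those 8 mRNA, the sh1088 log2 ratio of MT-ND1, MT-CO2, MT-ND2, MT-ND3 and MT-ND4 was between -0.135 and -0.014. Of the 37 genes, 29 were tested after a filter on low counts, which all 13 mRNA, both rRNA and 14 tRNA passed. By edgeR's quasi-likelihood test 0 of the 29 had an adjusted p under 0.05, as did 0 of all 14913 genes (0%). At an unadjusted p under 0.05 there were 8 members, all tRNA and all lower, against 5.87% of all genes. Among the 8, MT-TR had 1 count in sh1088 and 0 in sh1196, against 28 in the sh control. MT-TR passed the filter through the sh control alone, so it could only come out lower. It is also among the 14 tRNA of the median given below. DESeq2 called 0 members and 0.0939% of all genes, and limma-voom called 0 members and 0% of all genes. The median log2 fold change was -0.65 over the mRNA (12 of 13 below 0, but 0.29 on TPM as deposited), 0.33 over the rRNA (0 of 2 below 0) and -1.35 over the 14 tRNA tested (10 below 0), against 0.07 over all genes. Of all 14913 genes, 6838 were below 0. The labels name no separate cultures for the knockdown libraries beyond the hairpin of each, so the spread behind these p-values is that of these libraries alone. As each library carries another hairpin, the difference between hairpins and technical variation cannot be told apart in that spread.

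The authors' deposited table gives smaller p-values for the same libraries. Of 29 mitochondrial genes with an adjusted p in the authors' deposited table, 11 had one under 0.05 and a lower level, against 1.77% of all genes in that direction. The authors' deposited table has 0 members and 1.69% of all genes called higher. The 11 were MT-ATP6, MT-ND4L and the tRNA MT-TF, MT-TH, MT-TL1, MT-TL2, MT-TM, MT-TR, MT-TS2, MT-TT and MT-TV. For MT-TS2 the authors' deposited table gives a log2 fold change of -2.61 with an adjusted p of 3.97e-06, where the edgeR estimate was -2.61 ± 1.00 (SE) with an adjusted p of 0.828. The fold changes of the 2 sources are alike and the p-values are not. What sets them apart was not tested.

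Among the tRNA, the serine tRNA MT-TS2 had 6853 scaled CPM in sh1088 and 1884 in sh1196, against 27260 in the sh control. The methionine tRNA MT-TM, which also serves initiation, had 417 scaled CPM in sh1088 and 170 in sh1196, against 1051 in the sh control. The phenylalanine tRNA MT-TF had 96.5 scaled CPM in sh1088 and 43.6 in sh1196, against 345 in the sh control. In all 3 both hairpins lay below the control, sh1196 further than sh1088. The log2 fold changes were -2.61 ± 1.00 for MT-TS2, -1.81 ± 0.65 for MT-TM and -2.26 ± 0.58 for MT-TF (edgeR, SE), each with an adjusted p of 0.828.

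Leucine codons are divided between a pair of tRNA. MT-TL1, for the TTA and TTG codons, had 188 scaled CPM in sh1088 and 102 in sh1196, against 417 in the sh control. MT-TL2, for the CTN codons, had 129 scaled CPM in sh1088 and 87.4 in sh1196, against 234 in the sh control. Both hairpins were below the control for both.

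The threonine tRNA MT-TT had 71.7 scaled CPM in sh1088 and 76.9 in sh1196, against 175 in the sh control, and here the hairpins nearly met. MT-TV, the valine tRNA and ribosome component, had 13 scaled CPM in sh1088 and 9.61 in sh1196, against 32.6 in the sh control. The histidine tRNA MT-TH, which lies directly before MT-TS2, had 4.16 scaled CPM in sh1088 and 2.79 in sh1196, against 13.7 in the sh control. Of the 12 tRNA with at least 100 counts in all, both hairpins lay below the sh control for 9, with no share of all genes computed. The other 3 were split between hairpins. The glycine tRNA MT-TG and the tyrosine tRNA MT-TY were above the control in sh1088 and below it in sh1196, and the proline tRNA MT-TP was the reverse.

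The mRNA differed between the hairpins. The median log2 ratio over the 13 mRNA was -0.10 for sh1088 and -1.73 for sh1196, each over the sh control. All 13 were below the control in sh1196 and 8 were in sh1088. MT-CO1, a catalytic subunit of complex IV, had 42270 scaled CPM in sh1088 and 14780 in sh1196, against 33160 in the sh control. MT-CYB, the cytochrome b of complex III, had 29320 scaled CPM in sh1088 and 8735 in sh1196, against 24500 in the sh control. For both, the control lay between the hairpins.

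MT-ATP6 and MT-ND4L were the mRNA furthest below the control. MT-ATP6, a subunit of the proton channel of ATP synthase, had 2965 scaled CPM in sh1088 and 936 in sh1196, against 5614 in the sh control. MT-ND4L, a membrane subunit of complex I, had 1702 scaled CPM in sh1088 and 510 in sh1196, against 3171 in the sh control. Both hairpins lay below the control in each, with log2 fold changes of -1.49 ± 0.84 and -1.48 ± 0.81 (SE) and edgeR adjusted p-values of 0.828.

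MT-ND6, the complex I subunit that is the mRNA encoded on the minus strand, had a fold change above 0. It had 5570 scaled CPM in sh1088 and 2391 in sh1196, against 3470 in the sh control, and the edgeR log2 fold change was 0.23 ± 0.83 (SE), with an adjusted p of 0.970. The small-subunit rRNA MT-RNR1 had 4653 scaled CPM in sh1088 and 2578 in sh1196, against 2900 in the sh control. The large-subunit rRNA MT-RNR2 had 7159 scaled CPM in sh1088 and 3042 in sh1196, against 4236 in the sh control. The control lay between the hairpins for all 3. The sources used here do not say whether counting used strand, so reads of MT-ND6 and of the opposite strand's transcript cannot be told apart, and likewise for the minus-strand tRNA.

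**Figure D2:**
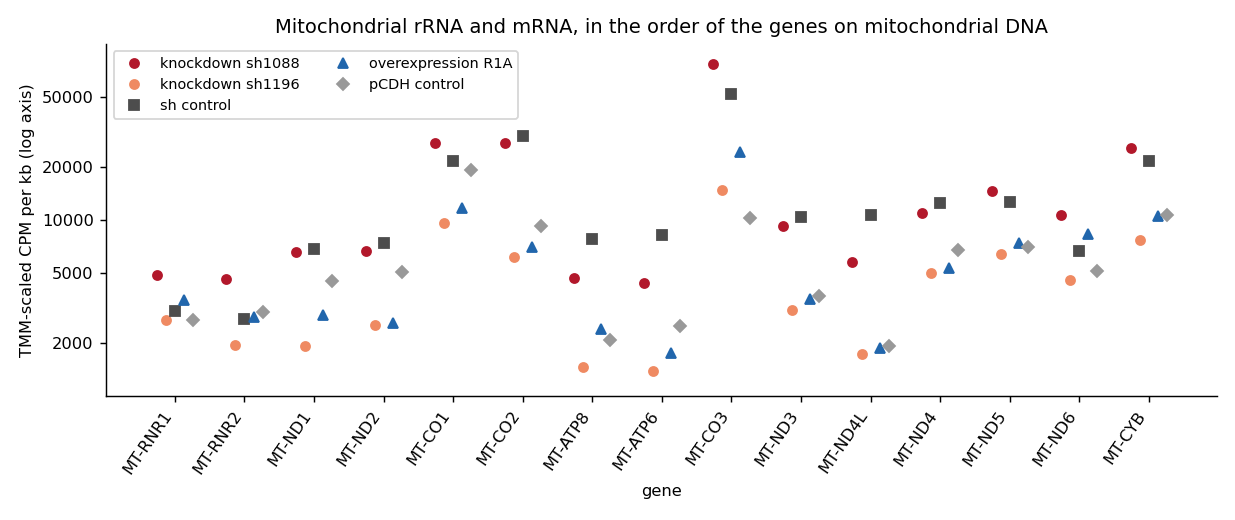
TMM-scaled CPM per kb of gene length (vertical log axis) of the 2 mitochondrial rRNA and 13 mRNA in order along mitochondrial DNA, with a point for each library. The sh1196 library is lowest for 12 of the 13 mRNA, and the sh control is highest for 8 and sh1088 for 5.

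In the overexpression comparison, 11 of 13 tRNA that passed a filter were higher than in the pCDH control, and 4 of 13 mRNA were. Of all 13946 genes that passed, 6932 were higher. This is 1 library against 1, with no replicate check and no p-value, and intervals are 95% counting intervals of the log2 ratio. Of the 37 genes, 28 passed a mean of at least 1 CPM. At least 2-fold higher were 11 members, 10 tRNA and MT-CO3, against 15.8% of all 13946 genes. At least 2-fold lower were 2 members, MT-TV and MT-TC, against 18.2% of all genes. MT-TC had 0.29 CPM in the overexpression library, against 2.29 in the pCDH control. It passed the filter through the pCDH control alone, so its place among the lower genes follows from the filter. The median log2 ratio was -0.06 over the 13 mRNA, 0.14 over the rRNA (-0.54 on TPM as deposited) and 2.09 over the 13 tRNA that passed, against -0.01 over all genes.

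MT-TT had 92.6 scaled CPM in the overexpression library, against 3.90 in the pCDH control, a log2 ratio of 4.56 (4.21 to 4.94). MT-TL2 had 114 scaled CPM in the overexpression library, against 8.55 in the pCDH control, a log2 ratio of 3.73 (3.48 to 3.98). MT-TG had 34.4 scaled CPM in the overexpression library, against 3.56 in the pCDH control, a log2 ratio of 3.27 (2.88 to 3.67). In all 3 the pCDH control was the lowest of the 5 libraries.

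The isoleucine tRNA MT-TI had 83.2 scaled CPM in the overexpression library, against 15.5 in the pCDH control. MT-TS2 had 2079 scaled CPM in the overexpression library, against 456 in the pCDH control, a log2 ratio of 2.18 (2.15 to 2.22). MT-TM had 189 scaled CPM in the overexpression library, against 50.9 in the pCDH control. These ratios were also above 2-fold, as were those of MT-TF (1.98), MT-TH (2.23), MT-TP (2.09) and MT-TY (1.68), all on the log2 scale. MT-TL1 was higher by less, at 0.77 (0.67 to 0.86), and at -0.23 on TPM as deposited.

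MT-TV went against the other named tRNA. It had 7.07 scaled CPM in the overexpression library, against 50.8 in the pCDH control, a log2 ratio of -2.85 (-3.19 to -2.53). It was the named tRNA with its highest level in the pCDH control. It lies between the genes of the 2 rRNA, and MT-RNR1 had a log2 ratio of 0.39 (0.37 to 0.41, but -0.30 on TPM as deposited) and MT-RNR2 of -0.10 (-0.11 to -0.08) in the same comparison. The cysteine tRNA MT-TC had 3 counts in the overexpression library, against 32 in the pCDH control.

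Of the mRNA, MT-CO3, a core subunit of complex IV, stood apart with 18970 scaled CPM in the overexpression library, against 8008 in the pCDH control, a log2 ratio of 1.24 (1.23 to 1.25). Of the other mRNA, 3 were above the pCDH control, MT-ND6 with a log2 ratio of 0.69, MT-ATP8 with 0.21 and MT-ND5 with 0.07, but on TPM as deposited these 3 were at -0.01, -0.56 and -0.60. The remaining 9 were below it. The lowest were the complex I subunit MT-ND2 at -0.97 and MT-CO1 at -0.73. The other ratios were between -0.65 for MT-ND1 and -0.02 for MT-CYB.

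The authors' deposited table for overexpression has higher values, with 9 of 13 mRNA above 0 and a median log2 fold change of 0.60 over them. MT-CO3 has 1.82 and MT-ND6 1.10 in the authors' deposited table. For MT-TH the authors' deposited table gives a mean normalised count of 346 and a log2 fold change of 5.58, beside 64 counts in the overexpression library and 20 in the pCDH control. For MT-TD it gives a mean of 0.945, beside 0 counts in both libraries, again in the authors' deposited table. The means and fold changes of the authors' deposited table therefore cannot come from its 2 count columns alone, and what else entered them is not given in the sources used here.

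**Figure D3:**
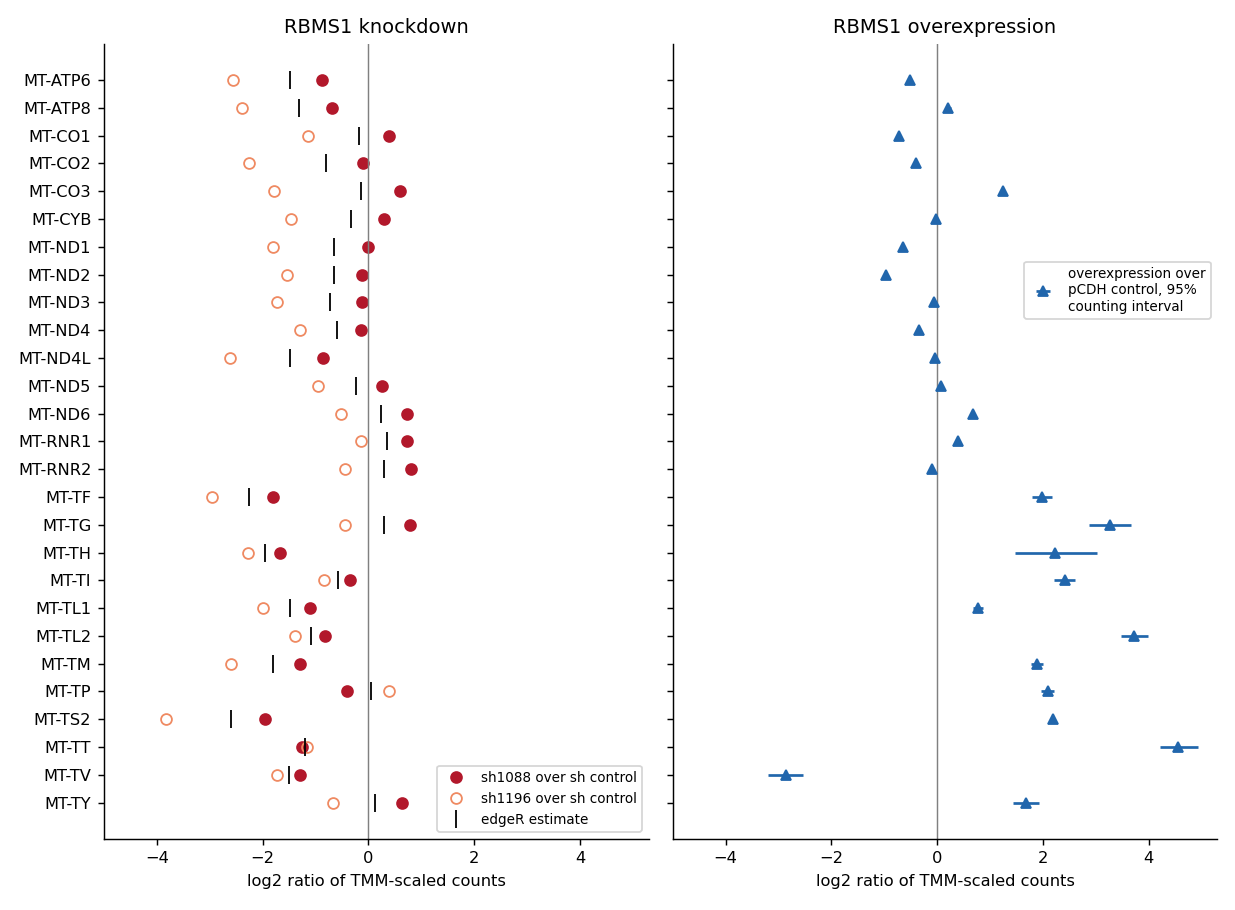
Log2 ratios of TMM-scaled counts for the 13 mRNA, 2 rRNA and 12 named tRNA, for each hairpin over the sh control with the edgeR estimate (left) and for overexpression over the pCDH control with its 95% counting interval (right). Most tRNA lie left of 0 in the knockdown panel and right of 0 in the overexpression panel, with MT-TV at -2.85.

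The tRNA pattern rested on the controls. For 7 of the 12 named tRNA the sh control was the highest and the pCDH control the lowest of all 5 libraries, and for 11 of 12 the pCDH control was the lowest. How often all genes take these orders was not computed, so the counts are not read as particular to the tRNA. MT-TS2 ranged over all libraries from 456 scaled CPM in the pCDH control to 27260 in the sh control. When the knockdown libraries were set against the pCDH control, the tRNA median log2 fold change was 1.77, where it was -1.35 against the sh control, and edgeR called 2 members, MT-TL2 and MT-TT, against 0.6% of all 15508 genes. When the overexpression library was set against the sh control, the tRNA median log2 ratio was -1.37, where it was 2.09 against the pCDH control. The sign of both tRNA comparisons thus turned with the choice of control. The mean fragment length was longest in the pCDH control, and the RNase P locus took its largest share in the sh control. Their part in the tRNA levels was not tested, and with 1 library of each control, vector system and library cannot be told apart.

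**Figure D4:**
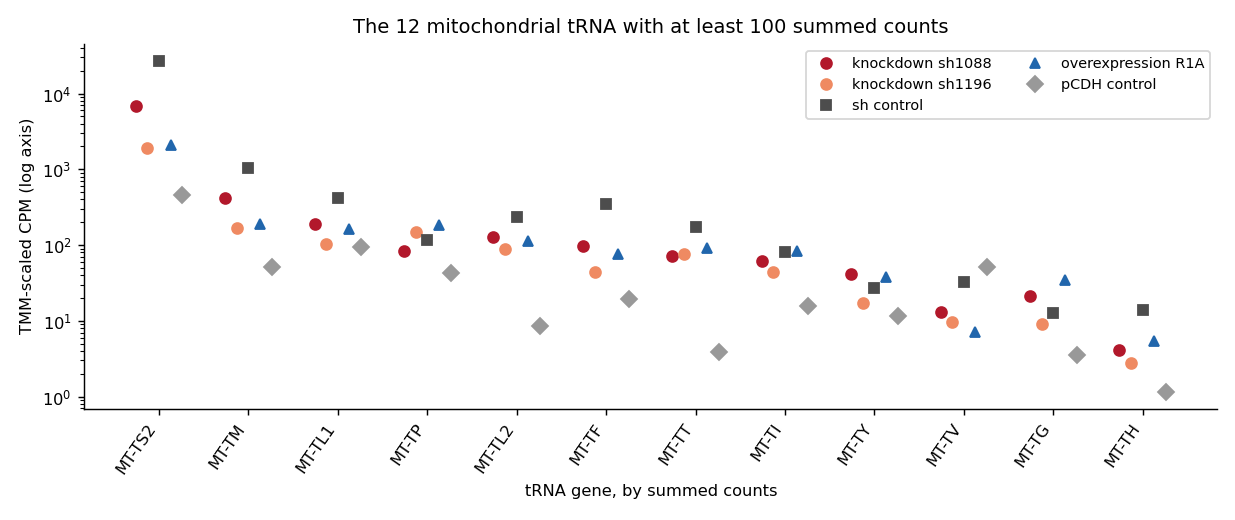
TMM-scaled CPM (vertical log axis) of the 12 mitochondrial tRNA with at least 100 counts in all, ordered by summed counts, with a point for each library. The pCDH control is the lowest point for all but MT-TV, and the sh control is the highest for 7.

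A fit over all 5 libraries used RBMS1 level coded as -1, 0 and 1 and a term for the vector system. It gave the change per step of that code, not of measured RBMS1. Both controls were coded 0, though RBMS1 had 31.0 scaled CPM in the sh control and 24.7 in the pCDH control. With the vector term the fit rests on the same control libraries as the comparisons above. By edgeR's quasi-likelihood test 0 of 29 members had an adjusted p under 0.05, against 0.00632% of 15827 genes. At an unadjusted p under 0.05 there were 8 members, all tRNA and all higher with the coded level, against 6.6% of all genes. DESeq2 called 5 members, MT-TF, MT-TL2, MT-TM, MT-TS2 and MT-TT, against 0.354% of all genes, and limma-voom called 0. The median change per step was 1.64 (log2) over 14 tRNA and 0.23 over 13 mRNA (-0.09 for mRNA when scaled by library size alone), against 0.02 over all genes. Without the vector term, a setting chosen after seeing the data, these medians were 0.23 for tRNA and -0.23 for mRNA. In that setting 0 members had an unadjusted edgeR p under 0.05, against 154 of all 15827 genes. Among the named tRNA, the largest changes per step were 2.72 ± 0.81 for MT-TT (adjusted p = 0.729) and 2.45 ± 0.69 for MT-TS2 (adjusted p = 0.675), both SE and edgeR. MT-TR, which passed the filter through its 28 counts in the sh control alone, had 3.33 ± 1.63. It is among the 14 tRNA of the median, which is raised by its place there.

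The make-up of the mRNA pool, each gene as a share of the counts of the 13 mRNA, leaves out the part of a library taken by other RNA. Complex IV subunits took the largest part, 55.15% in sh1088 and 45.3% in sh1196, against 49.5% in the sh control, and 47.6% in the overexpression library, against 46.7% in the pCDH control. Complex I subunits took 29.7% in sh1088 and 39.9% in sh1196, against 33.8% in the sh control, and 36.7% in the overexpression library, against 38.1% in the pCDH control. For both complexes the sh control lay between its hairpins.

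MT-CYB, the complex III member, was the steadiest. It took 13.4% of the pool in sh1088 and 12.97% in sh1196, against 12.9% in the sh control, and 13.8% in the overexpression library, against 12.9% in the pCDH control. Its highest share was 1.07 times its lowest.

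MT-CO3 was the most variable. It took 27.4% of the pool in sh1088 and 17.1% in sh1196, against 21.3% in the sh control, and 21.6% in the overexpression library, against 8.50% in the pCDH control. The pCDH control was far below the other libraries. MT-CO1 had its largest share there, with 19.3% in sh1088 and 21.9% in sh1196, against 17.4% in the sh control, and 20.5% in the overexpression library, against 31.5% in the pCDH control. The ratio of MT-CO3 to MT-CO1 counts was 1.42 in sh1088 and 0.781 in sh1196, against 1.22 in the sh control, and 1.05 in the overexpression library, against 0.270 in the pCDH control. Per kb of gene length, MT-CO3 was the highest mRNA in 4 libraries and MT-CO1 in the pCDH control.

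ATP synthase subunits and MT-ND4L had their largest shares in the sh control. MT-ATP6 and MT-ATP8 together took 1.79% of the pool in sh1088 and 1.83% in sh1196, against 3.79% in the sh control, and 1.92% in the overexpression library, against 2.25% in the pCDH control. MT-ND4L took 0.776% in sh1088 and 0.758% in sh1196, against 1.67% in the sh control, and 0.630% in the overexpression library, against 0.604% in the pCDH control. Both hairpins lay near each other and below the sh control, and the sh control was the highest of all 5 libraries for both. MT-ND6 took 2.54% in sh1088 and 3.55% in sh1196, against 1.82% in the sh control, and 4.95% in the overexpression library, against 2.85% in the pCDH control. This is the reverse order for knockdown, with both hairpins above the control. Groups of 2 against 1 cannot give an exact permutation p below 0.333, so no test was made of these shares.

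**Figure D5:**
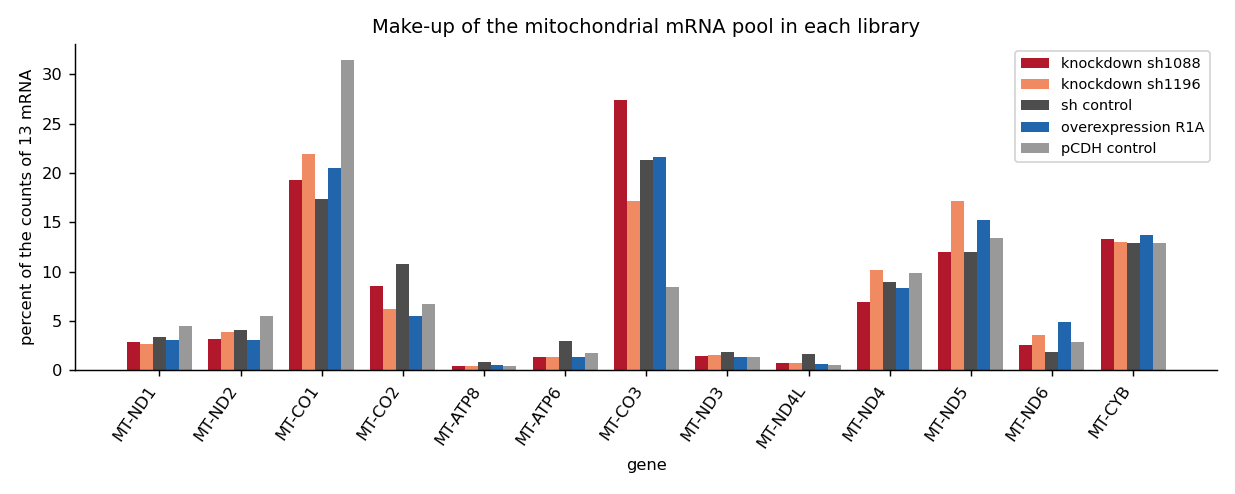
Share of each of the 13 mitochondrial mRNA in the counts of all 13 (percent, vertical axis), in order along mitochondrial DNA, with a bar for each library. MT-CYB is close to 13% throughout, and MT-CO3 runs from 8.50% in the pCDH control to 27.4% in sh1088.

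Both subunits of ATP synthase lie on one mRNA with overlapping reading frames, as do MT-ND4L and MT-ND4, so counts in the shared bases cannot be given to one gene with certainty. MT-ATP8 and MT-ATP6 share 46 nt (chrM:8527-8572, plus strand), which are 22.2% of MT-ATP8 and 6.75% of MT-ATP6. MT-ND4L and MT-ND4 share 7 nt (chrM:10760-10766, plus strand), shown in the context of chrM:10748-10778. The start codon of the downstream gene is in capitals.
MT-ATP8 and MT-ATP6 overlap: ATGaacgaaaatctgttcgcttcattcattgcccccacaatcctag
MT-ND4L and MT-ND4 context: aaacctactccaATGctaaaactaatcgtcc

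Per kb, the level of MT-ATP6 was 0.938 times that of MT-ATP8 in sh1088 and 0.951 times in sh1196, against 1.07 times in the sh control. It was 0.727 times in the overexpression library, against 1.20 times in the pCDH control. The values lay on both sides of equal levels. MT-ND4 per kb was 1.92 times MT-ND4L in sh1088 and 2.90 times in sh1196, against 1.16 times in the sh control, and 2.86 times in the overexpression library, against 3.51 times in the pCDH control. MT-RNR2 per kb was 0.941 times MT-RNR1 in sh1088 and 0.722 times in sh1196, against 0.894 times in the sh control, and 0.794 times in the overexpression library, against 1.11 times in the pCDH control.

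Of the 22 tRNA, 8 were listed at 0 in all 5 libraries: MT-TA, MT-TD, MT-TE, MT-TK, MT-TN, MT-TQ, MT-TS1 and MT-TW. A count of 0 allows up to 0.291 CPM in the shallowest library. MT-TC had 65 counts in all and MT-TR 46, of which 1 was in sh1088 and 0 in sh1196, against 28 in the sh control. On the minus strand 5 of 8 tRNA were at 0, and on the plus strand 3 of 14. The tRNA at 0 were 68 to 73 nt long with 23.5% to 49.3% GC, and those with counts were 59 to 75 nt long with 23.1% to 45.8% GC, so neither length nor base composition separated them. The median number of codons read was 99.5 for tRNA at 0 and 187 for tRNA with counts. MT-TI with 3055 counts in all and MT-TQ with 0 show that neighbours on opposite strands could differ.

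The ends of the mRNA show how the files treat these genes. Of the 13 mRNA, 9 start with ATG, MT-ND1, MT-ND3 and MT-ND5 with ATA and MT-ND2 with ATT, which the mitochondrial code also allows. The annotated mRNA of 6 genes end in an incomplete codon, which is known to be completed by the added poly(A) tail.

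Copies of mitochondrial DNA in the nuclear genome can take reads from these genes. Of 407 such pseudogenes found by symbol, 79 had counts, which came to between 0.0731% and 0.146% of the mitochondrial mRNA and rRNA counts per library. MTATP6P1 (chromosome 1, 633696 to 634376, GRCh38) had 3338 counts in all and 98.5% identity to MT-ATP6. MTND2P28 (chromosome 1, 629640 to 630683) had 1752 counts and 98.2% identity to MT-ND2. Reads that both copies share cannot be told apart.

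Nuclear genes of mitochondrial transcription, RNA processing and translation were set beside these values. Of 68 genes listed 66 were found by symbol and tested, and 0 were called in the knockdown by edgeR (adjusted p), as were 0 of all 14913 genes. Their median log2 change was 0.27 for knockdown and 0.46 for overexpression. The 4 with the smallest knockdown p were PTCD3, a mitochondrial ribosome protein, TRIT1, which modifies tRNA, GATC, which helps to form glutamine-charged tRNA, and FASTK, which acts on MT-ND6 mRNA. GATC overlaps another gene on the same strand in GENCODE, so its counts are uncertain. PTCD3 had 61.5 scaled CPM in sh1088 and 99.6 in sh1196, against 33.9 in the sh control, a log2 change of 1.28 ± 0.53. TRIT1 changed by 1.06 ± 0.49, GATC by -1.04 ± 0.52 and FASTK by -0.78 ± 0.43 (log2, SE), all with an edgeR adjusted p of 0.828. FASTK had 29.5 scaled CPM in sh1088 and 26.8 in sh1196, against 49.3 in the sh control, and both hairpins were below the control. For overexpression over the pCDH control, the log2 ratios were 0.79 for PTCD3, 0.44 for TRIT1, 0.69 for GATC and -0.49 for FASTK. PTCD3 and TRIT1 were thus above their own control in both comparisons.

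The nuclear-encoded partners of the mitochondrial mRNA were given by count. Of 74 nuclear subunits of complexes I, III, IV and V, 73 were tested and 0 called, with a median log2 change of -0.26 for knockdown (50 of 73 below 0) and 0.43 for overexpression (55 of 73 above 0). Of 78 mitochondrial ribosomal proteins, 77 were tested and 0 called, with medians of -0.16 for knockdown and 0.31 for overexpression. The mitochondrial mRNA medians were -0.65 for knockdown and -0.06 for overexpression, and those of all genes 0.07 and -0.01. In the knockdown, 0 of all 14913 genes were called and 6838 were below 0. For overexpression, 6932 of all 13946 genes were above 0.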

How the data were processed

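RNA of 5 A549 libraries was analysed, grouped by the labels. The expected counts are the authors' RSEM estimates per gene, per the file headers. TPM and FPKM, scaled by effective length, were deposited by the authors beside them, with gene lengths. The tools named in the submitters' processing notes, without roles, are STAR 2.4.2, RSEM 1.3.1, Bowtie and DESeq2. Build and annotation: not given in the sources used here. In their comparison tables the authors deposited a mean normalised count (a signal), a log2 fold change and p-values, as the file headers name them. Count columns there matched the sample files (largest difference 0); the overexpression means and fold changes do not follow from them alone.

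Expected counts were rounded. Knockdown was tested against the sh control with edgeR 4.0.16 in R 4.3.3 (quasi-likelihood, robust, TMM, filterByExpr, Benjamini-Hochberg over all genes tested at 0.05), with 1 residual degree of freedom, the lone control being assumed to vary like the knockdown libraries. The fit over 5 libraries had 2 residual degrees of freedom. Each edgeR SE was worked back from the test, as the size of the log2 change over the square root of the quasi-likelihood F. Scaled CPM use TMM factors over all 5 libraries. Overexpression, 1 library against 1, is given as log2 ratios of TMM-scaled counts with exact conditional 95% intervals. DESeq2 1.42.0 and limma 3.58.1 (voom) were alternatives, as were other scalings, TPM, FPKM, other filters and other control libraries. The fits were also run on simulated data with the same dispersion for every gene, which cannot show that they suit these libraries. Mean fragment length is the gene length less the effective length, plus 1, at its largest, which long genes reach. Of the gene identifiers 58656 matched GENCODE 29. Every mitochondrial mRNA and rRNA is named, tRNA with at least 100 counts in all and nuclear pseudogenes with at least 1000, and of the nuclear list the 4 genes with the smallest knockdown p; other tRNA were named after their values were seen. Members and lists were chosen with earlier results of these data known. A list of immune markers is not reported here.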

Additional observations from a re-analysis of the deposited data

How the results depend on the processing

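No paired analysis was possible because only the knockdown group has 2 libraries. Adding pseudogene counts, DESeq2 size factors and nuclear protein-coding scaling left every knockdown sign of the 27 named members as it was. Leaving out a hairpin leaves 1 library against 1, a ratio with no test: the knockdown median ranged from -1.75 to -0.10 for mRNA, -0.33 to 0.76 for rRNA and -1.59 to -1.18 for tRNA, and signs differed between hairpins for MT-ND6 (-0.54 to 0.72), MT-CYB (-1.49 to 0.30), MT-ND5 (-0.98 to 0.25), MT-CO1 (-1.17 to 0.39), MT-CO3 (-1.81 to 0.60), MT-RNR2 (-0.48 to 0.80), MT-RNR1 (-0.17 to 0.72), MT-TY (-0.69 to 0.63), MT-TG (-0.47 to 0.79) and MT-TP (-0.41 to 0.37). Members called in the knockdown were 2 on FPKM (of all genes, 25 of 14913), 2 with no filter on low counts (102 of 23548), 2 against the pCDH control (93 of 15508) and 1 on TPM rescaled without MT-TS2 (12 of 14912), and in the level fit 5 with no filter (89 of 25647) and 5 with DESeq2 (56 of 15827). MT-TR, with 1 count in sh1088 and 0 in sh1196, was among those called on FPKM, with no filter and on TPM rescaled without MT-TS2. The causes were not tested.

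Log2 medians for knockdown were, on TPM, 0.29 (mRNA), 1.35 (rRNA) and -0.28 (tRNA), against the pCDH control 0.59 (mRNA) and 1.77 (tRNA), and for tRNA -0.82 by library size, -0.89 on FPKM and -0.52 on TPM without MT-TS2. Medians for overexpression (mRNA, rRNA, tRNA) were -0.19, 0.02 and 1.96 by library size, -0.78, -0.54 and 1.10 on TPM, -0.24, 0.001 and 1.64 on FPKM, and -0.73, -0.49 and 1.09 on TPM without MT-TS2; against the sh control they were -1.28 for mRNA and -1.37 for tRNA. Medians per level (mRNA, tRNA) were -0.09 and 1.31 by library size, 0.17 and 1.58 by nuclear protein-coding counts, -0.61 and 0.61 on TPM, -0.03 and 1.18 on FPKM, -0.37 and 0.57 on TPM without MT-TS2, and -0.23 and 0.23 with no vector term; limma-voom gave 0.33 for mRNA.

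Knockdown signs turned by library size for MT-CYB (0.04), MT-ND5 (0.20), MT-CO1 (0.21) and MT-CO3 (0.18). They turned on TPM for MT-CYB (0.54), MT-ND2 (0.29), MT-ND5 (0.77), MT-CO1 (0.75), MT-ND3 (0.19), MT-ND4 (0.41), MT-ND1 (0.21), MT-CO3 (0.53) and MT-TI (0.49), on TPM without MT-TS2 for MT-CYB (0.16), MT-ND5 (0.39), MT-CO1 (0.36), MT-ND4 (0.03), MT-CO3 (0.15) and MT-TI (0.10), on FPKM for MT-ND5 (0.17) and MT-CO1 (0.14), and with limma-voom for MT-TY (-0.02) and MT-TP (-0.02). Against the pCDH control they turned for MT-CO2 (0.87), MT-CYB (0.67), MT-ND5 (0.60), MT-ND3 (0.76), MT-ND4 (0.26), MT-ATP6 (0.22), MT-ATP8 (0.58), MT-CO3 (2.18), MT-ND4L (0.98), MT-TL1 (0.64), MT-TF (1.87), MT-TI (1.77), MT-TM (2.54), MT-TH (1.60), MT-TS2 (3.28), MT-TL2 (3.68) and MT-TT (4.26). Overexpression signs turned against the sh control for MT-CO3 (-1.12), MT-TF (-2.19), MT-TM (-2.50), MT-TH (-1.37), MT-TS2 (-3.74), MT-TL2 (-1.06), MT-TT (-0.94), MT-TL1 (-1.39), MT-ATP8 (-1.72), MT-ND5 (-0.80) and MT-RNR2 (0.01), on TPM for MT-ND6 (-0.01), MT-ATP8 (-0.56), MT-ND5 (-0.60), MT-TL1 (-0.23) and MT-RNR1 (-0.30), on TPM without MT-TS2 for MT-ATP8 (-0.51), MT-ND5 (-0.55), MT-TL1 (-0.18) and MT-RNR1 (-0.25), on FPKM for MT-ATP8 (-0.03) and MT-ND5 (-0.07), and by library size for MT-ND5 (-0.06). Level signs turned on TPM for MT-TY (-0.30) and MT-TP (-0.14), on TPM without MT-TS2 for MT-TY (-0.07), with DESeq2 for MT-TV (0.01), and with no vector term for MT-TV (0.35) and MT-TM (-0.05).

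The log2 ratio of the mRNA share was, for knockdown, 0.0044 on all counts, -0.33 per nuclear protein-coding count and -0.24 without the RNase P locus, and for overexpression -0.24 on all counts, -0.15 per nuclear protein-coding count and -0.66 on TPM. On TPM the mRNA took 8.775% in sh1088 and 4.313% in sh1196, against 4.69% in the sh control, so the mean of the hairpins lay above the control. The rRNA share gave 0.36 and 1.37 for knockdown and 0.06 and -0.52 for overexpression per nuclear protein-coding count and on TPM (0.76 and -0.04 on all counts), and the tRNA share 1.96 and 1.06 for overexpression (1.87 on all counts). The number of libraries, 1 in 3 of the 4 groups, limits all comparisons. Depth limits the tRNA with few counts: the overexpression interval of MT-TC, with 3 and 32 counts, ran from -5.22 to -1.19 (log2).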
